A study of Mus musculus with 12 samples.

Results

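SR proteins are splicing factors with an RNA-recognition motif and a tail rich in arginine and serine, and they help the spliceosome to recognize exons. They are known to control their own levels: many SR genes carry a poison exon, whose inclusion brings in a stop codon ahead of the normal one, or a retained intron, and the resulting mRNA is degraded by nonsense-mediated decay or stays in the nucleus. The transcripts of 10 SR genes, Srsf1, Srsf2, Srsf3, Srsf4, Srsf5, Srsf6, Srsf7, Srsf9, Srsf10 and Srsf11, were taken by gene name from the GENCODE M1 annotation, out of 34079 annotated genes with exonic values. They comprise 71 annotated transcripts, of which 63 have exonic and intronic values, out of 121429 transcripts with exonic values in the series. GENCODE M1 classes 26 of the 63 as protein-coding and 37 as noncoding, namely 14 with a retained intron, 14 processed transcripts and 9 targets of nonsense-mediated decay. The 8 without values are protein-coding.

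Mouse embryonic stem cells (mESCs) of the DTCM23/49 XY lines, grown with LIF on gelatin, were given 200 µM 4-thiouridine (4sU) for 15, 30 or 60 min. 4sU is built into RNA made during the pulse, which can then be biotinylated and pulled down as labeled RNA. Labeled and total RNA of 2 biological replicates at each labeling time gave 12 libraries, 6 labeled and 6 total. The replicates come from 1 culture that was divided and then passaged apart, all cells received 4sU, and p-values measure the spread between these libraries. The values are length-normalized abundances of the exons or of the introns of a transcript, and every library is scaled to about the same sum (from 19988830 to 19992902). Differences between labeled and total RNA are therefore differences in the share of a library, the depth of each single library is unknown, and fewer cells and less RNA per cell cannot be told apart in bulk RNA.

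Markers of pluripotent stem cells were present. All 10 on the list used passed a mean of 20, with summed exonic abundances between 20071 and 32847 in the 12 libraries. Of the fibroblast markers 1 of 6 passed, with Col3a1 and Dcn at 0, and of the markers of differentiated germ layers 1 of 7 passed, with Afp at 0. Introns held 6.53% to 7.41% of the summed values in total RNA and 6.99% to 14.8% in labeled RNA. The labeled libraries of replicate 2 at 60 and 15 min, with 6.99% and 7.24%, lay within the range of total RNA, and the other 4 labeled libraries held 9.35% to 14.8%.

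The sequences below show where the reading frame meets a stop codon in noncoding transcripts of 4 of these genes. Each exon lies within an intron of the leading protein-coding transcript of its gene and directly follows a coding exon in the noncoding transcript. The reading frame was carried over from that coding exon, and the exon is printed from its first base to the first stop codon in frame, which is in capitals. Sequences and positions are from NCBIM37 (mm9), the build of GENCODE M1, whereas the submitters' processing notes name mm10.

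Srsf3 poison exon, intron 3 of 5, chr17:29176399-29176432, plus strand: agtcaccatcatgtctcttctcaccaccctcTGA

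Srsf6 exon, intron 2 of 5, chr2:162758551-162758702, plus strand: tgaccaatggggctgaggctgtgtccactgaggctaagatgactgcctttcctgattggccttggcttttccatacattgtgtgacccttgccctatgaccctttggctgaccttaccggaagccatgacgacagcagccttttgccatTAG

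Srsf4 exon, intron 1 of 5, chr4:131440191-131440305, plus strand: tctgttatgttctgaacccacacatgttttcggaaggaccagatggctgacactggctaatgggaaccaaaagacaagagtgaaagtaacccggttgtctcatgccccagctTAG

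Srsf11 exon of Srsf11-008 and Srsf11-009, intron 2 of 11, chr3:157686274-157686323, minus strand: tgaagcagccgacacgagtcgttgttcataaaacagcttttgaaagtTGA

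Srsf11 exon of Srsf11-008 and Srsf11-006, intron 2 of 11, chr3:157687173-157687195, minus strand: ttcttttccctggttcagccTGA

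Srsf11 exon of Srsf11-003, intron 2 of 11, chr3:157687679-157687725, minus strand: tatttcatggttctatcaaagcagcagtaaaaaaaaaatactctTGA

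The Srsf3 exon is whole at 456 bases (chr17:29176399-29176854), and the stop is reached after 34. Srsf11 holds 3 separate exons of this kind within the same intron, and their bases also lie in exons of other Srsf11 transcripts that GENCODE M1 classes as protein-coding. Srsf11-008 joins its exons in the order in which they are transcribed, so that only the upstream one was read in the frame of a coding exon there, and the other was read in Srsf11-009. The 104-base exon of Srsf2-002 lies in an intron after the stop codon of Srsf2 and is not printed. In Srsf3 the splice sites of the poison exon and of the intron around it are given below, with the intronic GT and AG in capitals, 3 exonic bases at each end, and the sites of the retained intron 2 of Srsf2 for comparison.

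Srsf3 poison exon, donor, chr17:29176852-29176860: ctaGTaagt

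Srsf3 poison exon, acceptor, chr17:29176379-29176401: aaaaatgaaccccgttacAGagt

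Srsf3 intron 3, donor, chr17:29175567-29175575: cagGTactt

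Srsf3 intron 3, acceptor, chr17:29177700-29177722: tttactgtttctgcttctAGatc

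Srsf2 intron 2, donor, chr11:116713329-116713337, minus strand: atgGTaatg

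Srsf2 intron 2, acceptor, chr11:116712273-116712295, minus strand: ctctttcttttcaaacctAGatg

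In NCBIM37, Srsf3 (ENSMUSG00000071172) lies at chr17:29169618-29180311 on the plus strand and Srsf7 (ENSMUSG00000024097) at chr17:80599429-80606629 on the minus strand. Srsf1 (ENSMUSG00000018379) lies at chr11:87860875-87867257 on the plus strand and Srsf2 (ENSMUSG00000034120) at chr11:116711215-116714408 on the minus strand. Srsf4 (ENSMUSG00000028911, chr4:131429532-131457640) and Srsf10 (ENSMUSG00000028676, chr4:135411662-135425823) are both on the plus strand of chromosome 4. Srsf5 (ENSMUSG00000021134, chr12:82046491-82051494), Srsf6 (ENSMUSG00000016921, chr2:162757264-162762857) and Srsf9 (ENSMUSG00000029538, chr5:115777186-115783089) are on the plus strand, and Srsf11 (ENSMUSG00000055436, chr3:157673437-157699603) is on the minus strand.

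All 10 SR genes were expressed, and all 63 transcripts had a value in each of the 12 libraries. Levels between genes were compared on the exonic abundance of the leading protein-coding transcript, the one with the highest mean over the 12 libraries. Srsf2, which acts in exon recognition and transcription, led with 6126 ± 528 (SD, n = 6 total RNA libraries), and the 6 values ran from 5233 through a median of 6153 to 6874. Srsf5 followed at 3400 ± 916 and Srsf3, the smallest SR protein and an adaptor for mRNA export, at 2544 ± 413. Srsf1, which promotes the choice of nearby 5′ splice sites, was at 1169 ± 143. Srsf11 had 1000.2 ± 159 and Srsf7, another export adaptor, 952 ± 79.0. Srsf10, known as a splicing repressor when it is not phosphorylated, had 525 ± 58.6 and Srsf6 501 ± 53.0. Srsf9 had 218 ± 49.5 and Srsf4, which like Srsf5 and Srsf6 has a pair of RNA-recognition motifs, 138 ± 35.1.

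The ranges of neighbors in this order did not overlap between Srsf2 and Srsf5, Srsf3 and Srsf1, Srsf7 and Srsf10, or Srsf6 and Srsf9. They overlapped between Srsf5 and Srsf3, between Srsf1 and Srsf11, between Srsf11 and Srsf7, between Srsf10 and Srsf6, and between Srsf9 and Srsf4. The genes thus fall into 5 tiers in total RNA. Other genomic copies can share reads with some of them. The leading transcript of Srsf3 matched 9 other places in NCBIM37 over at least 20% of its length, 6 of them at 90% identity or more, that of Srsf10 matched 5 with 2 at that identity, and those of Srsf5 and Srsf7 matched 1 each, so their levels are uncertain. Srsf2 overlaps 1110005A03Rik and Mfsd11 on the other strand, Srsf1 overlaps Gm11508 and Srsf4 overlaps Gm12992, and the sources do not state whether strand was used in counting.

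**Figure D1:**
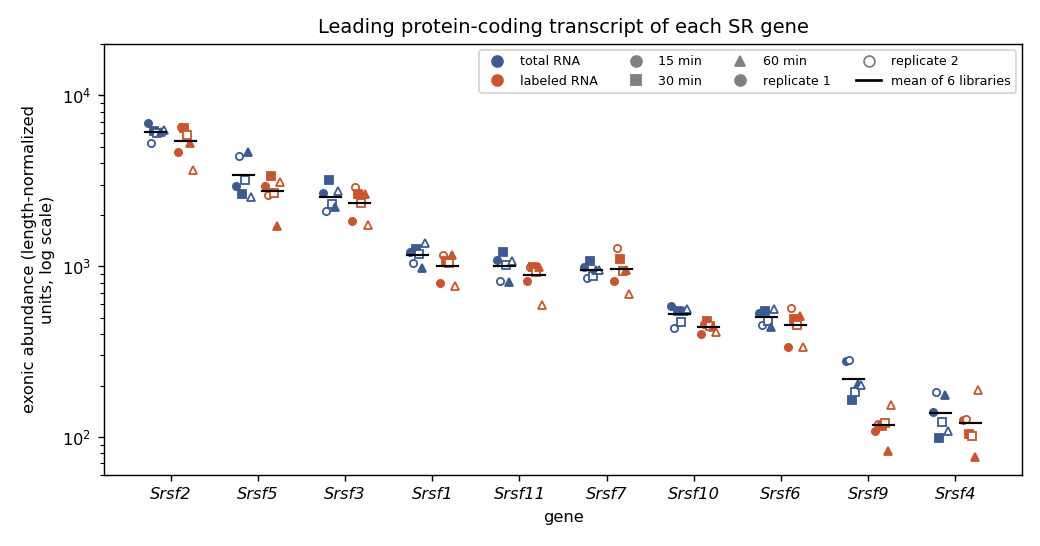
Exonic abundance (length-normalized units, log axis) of the leading protein-coding transcript of each SR gene in 6 total RNA (blue) and 6 labeled RNA (orange) libraries, with shapes for the labeling time, filled points for replicate 1, open points for replicate 2 and a line at the mean. Srsf2 is highest and Srsf4 lowest in total RNA, and Srsf9 is the gene whose total and labeled libraries do not overlap.

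The values behave as read densities over each transcript's own exons. Pairs of SR transcripts that share over 80% of their exonic bases differed by a median of 0.23 on the log2 scale (15 pairs), and pairs that share under 20% by 1.09 (143 pairs). Over all genes the medians were 0.19 and 1.40. The sum over a gene therefore grows with its number of annotated transcripts and was compared only between libraries, and the value of a noncoding transcript made mostly of coding exons (here, exons of any protein-coding transcript of the gene) rests mostly on bases that coding transcripts share. Of the 14 retained-intron transcripts, Srsf3-004 has 23.0% of its exonic bases in coding exons and Srsf1-004 has 100%.

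The comparison of labeled with total RNA asks which SR transcripts make up more or less of the RNA made during the pulse than of the RNA present. Exonic abundance was tested with limma on log2(value + 1) over 45537 transcripts with a mean of at least 20, with labeling time as a covariate and Benjamini-Hochberg adjusted p under 0.05 as the threshold. Of the 63 SR transcripts, 7 passed. One rose in labeled RNA and 6 fell, whereas 5.28% of all transcripts tested rose, 12% fell and 17.3% passed in either direction, so the share of SR transcripts that passed was below the background. The 6 labeled and 6 total libraries did not overlap for 6 of the 63, against 10.2% of all transcripts.

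Protein-coding SR transcripts lay mostly below 0. Of the 26, 24 had a negative log2 difference, 5 fell and 0 rose, with a median of -0.21, beside -0.16 for all protein-coding transcripts, of which 16.3% fell. The 37 noncoding SR transcripts had a median of -0.11, and 1 rose and 1 fell. Transcripts with a retained intron had a median of -0.04, with 7 of 14 above 0 and 1 that rose, beside -0.06 and 6.21% for all such transcripts. Targets of nonsense-mediated decay had a median of -0.08 and 0 of 9 passed, beside -0.14 and 16.2% for all of them. Processed transcripts had a median of -0.26, with 11 of 14 below 0 and 1 that fell, beside -0.12 and 10.1%. By limma at an unadjusted p under 0.05, 12 of the 63 passed, beside 32.9% of all transcripts. The medians of all 5 groups of SR transcripts lay below 0.

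**Figure D2:**
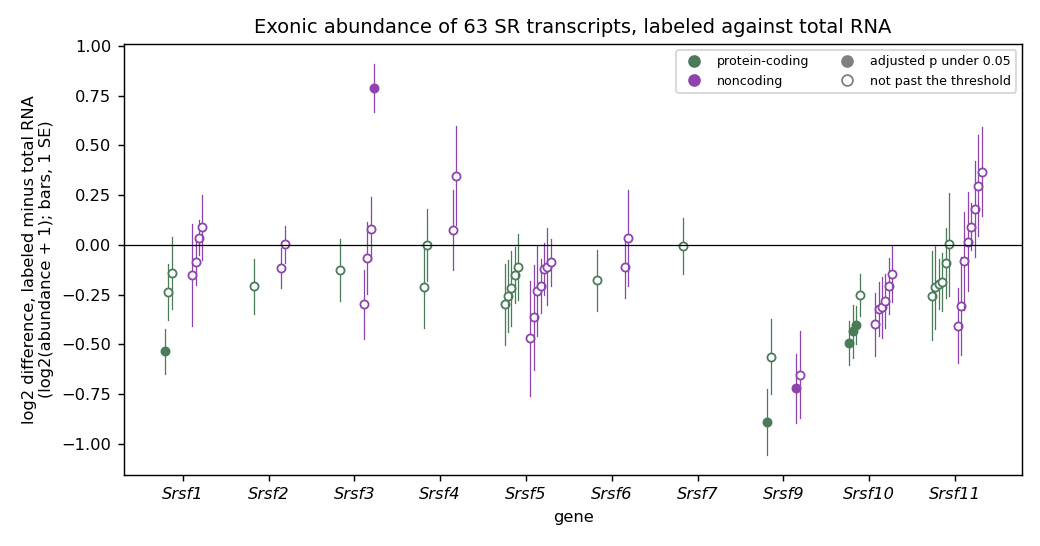
Log2 difference of exonic abundance, labeled minus total RNA, for the 63 SR transcripts by gene, with protein-coding transcripts in green, noncoding in purple, bars of 1 SE, and filled points past an adjusted p of 0.05. The single filled point above 0 is Srsf3-004 at 0.79, and the 6 filled points below 0 belong to Srsf1, Srsf9 and Srsf10.

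The transcript that rose is Srsf3-004, which ends inside intron 3 of Srsf3. Its last exon begins at the first base of the poison exon, chr17:29176399, and runs past the donor site of that exon to chr17:29177086, so that 688 of its 893 exonic bases lie in the intron. In total RNA it had 614 at the lowest, 828 at the median and 949 at the highest, and in labeled RNA 1054, 1347 and 1750. Every labeled library lay above every total library. The log2 difference was 0.79 (SE 0.12, adjusted p = 0.0025 by limma).

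The other Srsf3 transcripts did not pass. The poison exon transcript Srsf3-002, with 456 of 1919 exonic bases outside the coding exons, had 3079 ± 595 in total and 2967 ± 688 in labeled RNA, a log2 difference of -0.06 (SE 0.18). The leading protein-coding Srsf3-001 had -0.13 (SE 0.16). Srsf3-003, which keeps introns 3 and 4 whole, had 1632 ± 177 and 1763 ± 387 (log2 difference 0.08, SE 0.16). Srsf3-005, which starts near the 3′ end of intron 3 and is otherwise coding sequence, had the highest values, 5795 ± 859 and 4804 ± 1181 (log2 difference -0.30, SE 0.17). The Srsf3 transcript with the smallest share of coding sequence was thus the one that differed. The introns of Srsf3-001 differed in the same direction, as described with the introns, and whether the value of Srsf3-004 is spliced RNA or unspliced intron 3 was not tested.

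**Figure D3:**
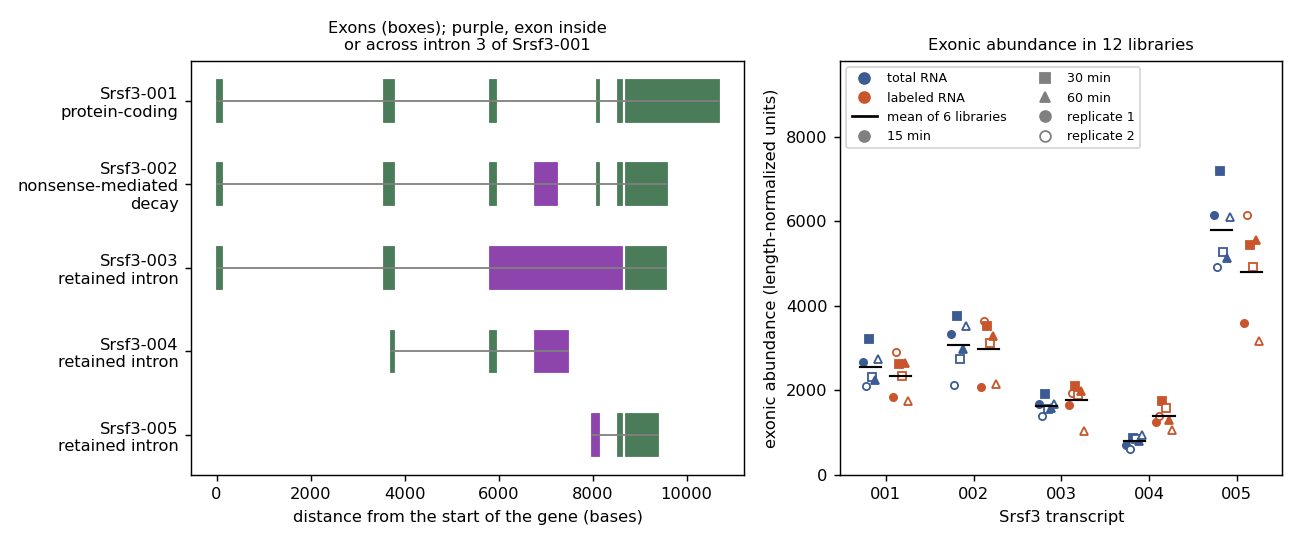
Left, exons of the 5 Srsf3 transcripts against distance from the start of the gene in bases, with exons inside or across intron 3 of Srsf3-001 in purple; right, their exonic abundance (length-normalized units) in 6 total (blue) and 6 labeled (orange) libraries, with the mean as a line. Srsf3-004 is the transcript whose labeled libraries all lie above its total libraries.

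Srsf9 was lower in labeled RNA for both kinds of transcript. Srsf9-004, its leading protein-coding transcript, had 164 at the lowest, 203 at the median and 280 at the highest in total RNA and 83.0, 118 and 153 in labeled RNA, with no overlap. It fell by 0.89 on the log2 scale (SE 0.17, adjusted p = 0.0054 by limma). The processed transcript Srsf9-002 had 128, 157 and 220 in total RNA and 69.8, 99.1 and 136 in labeled RNA, and it fell by 0.72 (SE 0.17, adjusted p = 0.017). The ranges of Srsf9-002 overlap, with the labeled library lower in all 6 pairs of labeling time and replicate. Only 11 bases of Srsf9-002 lie in introns of Srsf9-004, so its fall is not separate from that of the exons both transcripts share. Srsf9-001 and Srsf9-003 had -0.56 and -0.65 and did not pass (adjusted p = 0.063 and 0.061).

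Srsf10 followed the same direction in all of its 10 transcripts. The protein-coding Srsf10-002 had 300 at the lowest, 322 at the median and 431 at the highest in total RNA and 216, 241 and 257 in labeled RNA, and fell by 0.49 (SE 0.11, adjusted p = 0.012 by limma). Srsf10-003 had 450, 503 and 531 against 335, 377 and 414, and fell by 0.40 (SE 0.10, adjusted p = 0.016). Srsf10-004 had 340, 362 and 528 against 244, 290 and 325, and fell by 0.43 (SE 0.13, adjusted p = 0.043). None of the 3 overlap between labeled and total RNA. When each labeled library was matched to the total library of its labeling time and replicate number, Srsf10-003 and Srsf10-004 did not pass (adjusted p = 0.061 and 0.12), and Srsf10-004 also failed when any one of 10 libraries was left out (adjusted p from 0.0512 to 0.100), the exceptions being the labeled replicate 2 libraries of 15 and 60 min. After rescaling by the median ratio, Srsf10-002 and Srsf10-004 did not pass (adjusted p = 0.054 and 0.13). Leading Srsf10-001 had -0.25 (SE 0.11) and the processed Srsf10-008 -0.32 (SE 0.14), and neither passed.

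In Srsf1, the protein-coding Srsf1-006 fell by 0.53 (SE 0.11, adjusted p = 0.010 by limma). It had 439 at the lowest, 477 at the median and 518 at the highest in total RNA and 244, 349 and 367 in labeled RNA, with no overlap. The leading Srsf1-003 had -0.24 (SE 0.14), Srsf1-002, the leading target of nonsense-mediated decay, 0.09 (SE 0.16), and the retained-intron Srsf1-004 0.04 (SE 0.09). Only Srsf1-006 among the 7 Srsf1 transcripts passed.

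The leading decay-target, retained-intron and processed transcripts of the other genes did not pass. Srsf2-002 had 3342 ± 342 in total and 3085 ± 311 in labeled RNA (log2 difference -0.12, SE 0.10), and Srsf2-003, which keeps intron 2, had 3316 ± 196 and 3336 ± 381 (0.003, SE 0.092). Srsf5-006 had 3713 ± 957 and 3416 ± 681, and Srsf5-005 had 2017 ± 333 and 1746 ± 266. Srsf11-009 had 198 ± 61.0 and 202 ± 67.5, and Srsf11-012 had 393 ± 58.5 and 305 ± 76.4. Srsf6-002, which holds the exon shown for Srsf6, had 452 ± 20.5 and 428 ± 103. Of the Srsf4 transcripts, Srsf4-003, which holds the exon shown, had 24.2 ± 7.95 and 31.0 ± 9.29, and Srsf4-004 had 42.6 ± 12.3 and 44.3 ± 9.41. In all of these the ranges of labeled and total RNA overlapped.

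Summed over all transcripts of a gene, Srsf9 was the SR gene whose exonic abundance fell, by 0.73 on the log2 scale (SE 0.17, adjusted p = 0.0135 by limma over 13977 genes). It was 1 of 10 called, whereas 16.8% of all genes passed, 5.28% higher and 11.6% lower. Its 6 total libraries held 465 at the lowest, 564 at the median and 766 at the highest, and its labeled libraries 244, 358 and 495, lower in all 6 pairs. Srsf10 had -0.32 (SE 0.10) and missed the threshold (adjusted p = 0.058), although its ranges of 4234 to 5788 and 3303 to 4164 did not overlap, which held for 10.0% of all genes. The 8 other genes lay between -0.21 (Srsf5) and -0.01 (Srsf7), with SE from 0.09 to 0.17. The median of the 10 was -0.12 beside -0.05 over all genes.

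The balance of noncoding to coding transcripts was tested as the log2 ratio of their sums within a gene. Noncoding transcripts made mostly of coding exons share most of their bases with the coding sum. The ratio and the share below therefore cannot show how far the balance itself changed. Among the transcripts matched to GENCODE M1, Srsf7 has no noncoding one with a value. For the other 9 genes all ratios lay above 0, from 0.01 in Srsf5 to 0.31 in Srsf4, with a median of 0.10 beside 0.07 over 4552 genes. By limma 0 of 9 passed, with 1 (Srsf1) at an unadjusted p under 0.05, beside 1.01% of all genes adjusted and 19.2% unadjusted, so the SR genes did not stand above the background. Srsf1 had 0.29 (SE 0.12, adjusted p = 0.22). Counted as a share, noncoding transcripts made up 65.1% ± 1.77 of the summed exonic abundance of Srsf1 in total RNA (SD, n = 6) and 69.4% ± 3.72 in labeled RNA. The lowest, median and highest values were 63.5%, 64.9% and 68.2% against 65.7%, 68.5% and 76.6%, with overlapping ranges. The difference of 4.30 percentage points had a two-sided exact permutation p of 0.015 over 924 divisions of the libraries, unadjusted for the 9 genes, and p = 0.063 with signs exchanged within the 6 pairs of labeling time and replicate.

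Leaving out any one library left the exact p of Srsf1 between 0.0065 and 0.026, and the difference was 2.87 points without the labeled 60 min library of replicate 2, which held the 76.6%. In the other 8 genes, exact permutation p ran from 0.14 (Srsf11) to 0.80 (Srsf5) with all libraries. Each of the 12 libraries was then left out in turn for each of the 8 genes. Among all these exact p, unadjusted for their number, 3 were under 0.05. They were 0.039 for Srsf4 without the total 30 min library of replicate 1 (5.27 points against 3.94), 0.0043 for Srsf11 without the labeled 15 min library of replicate 2 (4.19 against 2.83), and 0.030 for Srsf3 without the labeled 60 min library of replicate 2 (0.83 against 0.58). In total RNA the mean share ran from 21.9% in Srsf4 to 81.6% in Srsf3, where it varied least (SD 0.47). These shares depend on how many transcripts of each class are annotated and are compared only between libraries.

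**Figure D4:**
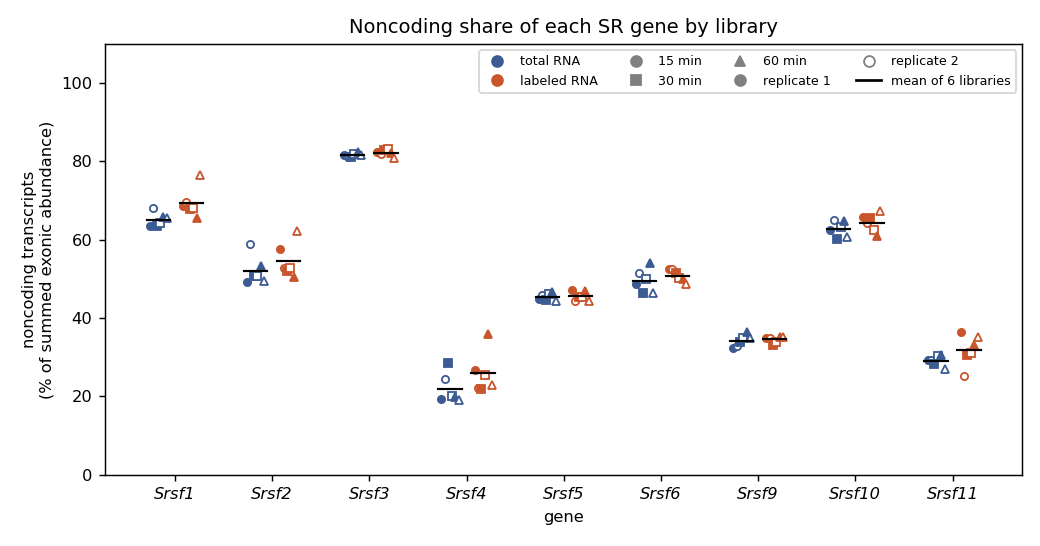
Noncoding transcripts as a percentage of the summed exonic abundance of each SR gene with both classes, in 6 total (blue) and 6 labeled (orange) libraries, with shapes for the labeling time, filled points for replicate 1 and a line at the mean. The labeled and total ranges overlap in all 9 genes, and the highest Srsf1 point, 76.6%, is the labeled 60 min library of replicate 2.

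Most introns are spliced out during or soon after transcription, so intronic sequence can mark RNA that is still being processed. In SR genes, introns of a coding transcript can also hold exons or retained introns of noncoding transcripts. Intron 3 of Srsf3-001 and intron 2 of Srsf2-001 do so, and the 2 kinds of signal were not separated. Intronic abundance summed over a gene rose in Srsf7 (log2 difference 0.80, SE 0.25, adjusted p = 0.025), Srsf3 (0.79, SE 0.26, adjusted p = 0.032) and Srsf9 (0.95, SE 0.34, adjusted p = 0.044) by limma over 9117 genes. That is 3 of 10, beside 32.3% of all genes that rose and 0.329% that fell, and the median of the 10 was 0.38 beside 0.65 over all genes, so the SR genes did not stand above the background. In 0 of 10 were labeled and total ranges apart, against 17.2% of all genes. Rescaling each library's introns by their own median ratio moved the median of all genes from 0.65 to -0.01. In that fit 0 SR genes rose, and Srsf1 and Srsf2 fell (-1.06 and -1.04, adjusted p = 0.023 and 0.039 by limma). Of all 8683 genes tested there, 9.41% rose and 9.08% fell. A rise relative to other introns was thus not detected, and this does not show that there was none. On simulated gene introns without rescaling, 21 of 100 changes of 1 on the log2 scale were recovered. Without such rescaling the higher intron share of the labeled libraries given above moves with the rises.

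The intronic sums of 2 genes come mostly from transcripts whose introns hold coding exons, and how much of the signal lies on those exons was not measured. Rows of transcripts whose introns hold over 10% coding-exon bases made up 99.3% of the intronic sum of Srsf1 and 97.9% of that of Srsf2, beside 48.2% in Srsf10, 28.2% in Srsf11, 3.19% in Srsf5 and 0 in the other 5 genes. Over transcripts whose introns hold no coding-exon base, Srsf1 turned from -0.40 to 0.62 (adjusted p = 0.11), 1 of the 7 SR genes tested rose (Srsf3), beside 32.9% of all genes, Srsf9 did not pass (0.91, adjusted p = 0.060), and Srsf2, Srsf5 and Srsf7 had no such transcript to test. The introns of single transcripts were therefore fitted as well, over 18384 transcripts, a fit added after the values had been seen. Of the 55 SR transcripts tested 5 rose and 1 fell, beside 27.0% and 0.500% of all transcripts, with a median of 0.30 against 0.55.

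Srsf2-001 was the clearest of these, chosen for mention after its values were seen. Its introns had 236 at the lowest, 262 at the median and 285 at the highest in total RNA and 294, 538 and 660.3 in labeled RNA (log2 difference 0.96, SE 0.18, adjusted p = 0.0029 by limma), while its exons had -0.21. It was the 1 of 55 whose groups did not overlap, against 15.7% of all transcripts with intronic values. The introns of Srsf3-001 had 188, 223 and 237 against 233, 454 and 640.3 (0.92, SE 0.23, adjusted p = 0.011), and labeled RNA was higher in all 6 pairs. Those of Srsf7-202 had 170.4, 292 and 367 against 269.6, 509 and 642 (0.80, SE 0.22, adjusted p = 0.017). The introns of Srsf2-001 and Srsf7-202 hold some coding-exon bases. Srsf10-010 (0.81, adjusted p = 0.0175) and Srsf3-004 (0.80, adjusted p = 0.043) also rose, but the call of Srsf10-010 was lost on leaving out either of 2 single libraries (the replicate 2 libraries of 30 min) and that of Srsf3-004 any of 9 (adjusted p from 0.056 to 0.11). Srsf1-004, whose intron is 100% coding exon, fell (-0.68, adjusted p = 0.044), and this call was lost under the replicate block (adjusted p = 0.058) and on leaving out any of 8 single libraries (adjusted p from 0.059 to 0.11). None of the rises held after rescaling of the introns by their median ratio (adjusted p from 0.19 to 0.72).

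The amount of intron relative to exon differed widely among SR genes. For the leading protein-coding transcript in total RNA, mean intronic abundance was 29.9% of exonic abundance in Srsf7, 26.3% in Srsf10 and 18.5% in Srsf4. It was 8.95% in Srsf5, 8.84% in Srsf6 and 8.56% in Srsf3, 5.32% in Srsf11, 4.26% in Srsf2, 2.01% in Srsf1 and 1.95% in Srsf9. The median over 8645 genes was 10.3%, so 3 of the 10 lay above it. In labeled RNA the order had Srsf7 at 52.0%, Srsf10 at 37.2% and Srsf4 at 30.1% again at the top, and Srsf1 at 3.77% at the bottom, beside a median of 20% over all genes. Within libraries, the ratio of labeled and total RNA did not overlap for Srsf2 (3.72% to 4.63% against 8.00% to 11.2%), Srsf3 (7.38% to 10.2% against 10.7% to 34.7%) and Srsf7 (19.9% to 34.0% against 39.1% to 62.7%), which is 3 of 10, beside 12% of 8635 genes. These ratios were not tested. The introns of the leading transcripts of Srsf2, Srsf5 and Srsf7 hold some coding-exon bases (10% or less), and their part in the ratios was not tested.

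**Figure D5:**
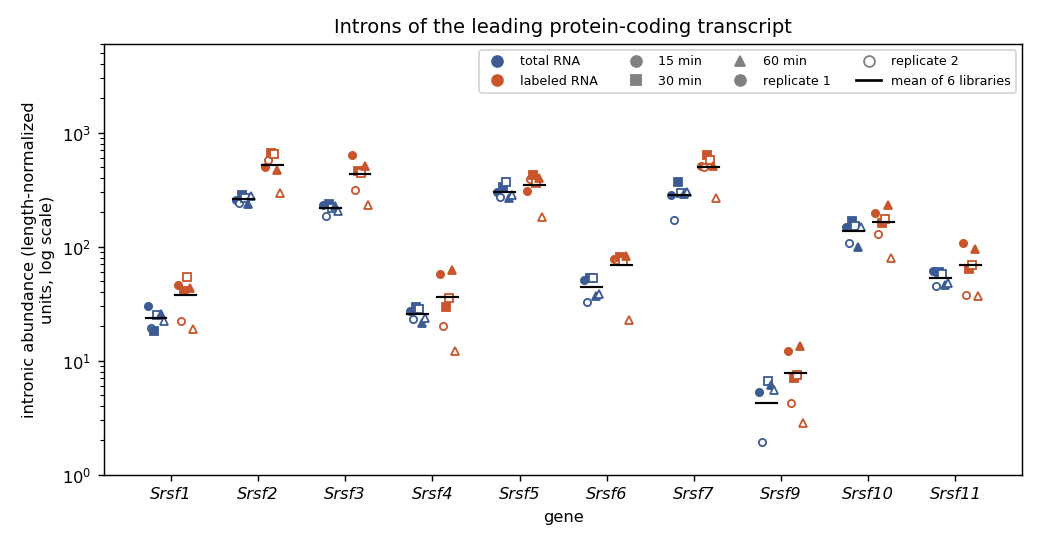
Intronic abundance (length-normalized units, log axis) of the leading protein-coding transcript of each SR gene in 6 total (blue) and 6 labeled (orange) libraries, with shapes for the labeling time, open points for replicate 2 and a line at the mean. The open triangle, the labeled 60 min library of replicate 2, is the lowest labeled point in every gene; 1 total library of Srsf9 is at 0 and is not drawn.

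The labeled libraries of replicate 2 at 60 and 15 min, whose intron shares lay within the range of total RNA, bear on the intron results. Without the one at 60 min, Srsf6 introns rose (0.92, adjusted p = 0.0049, beside 0.65 and 0.095 with all libraries), and 4 of 10 SR genes and 18 of 56 SR transcripts passed in place of 3 of 10 and 6 of 55. Over all features the calls went from 32.6% to 55.2% of genes and from 27.5% to 47.3% of transcripts. Without the one at 15 min, 3 SR genes and 9 SR transcripts passed, beside 53.9% of genes and 40.3% of transcripts, and the median of the SR genes was 0.56 in place of 0.38. The Srsf6 intronic sum of the 60 min library was 74.9 against 242 to 284 in the other 5 labeled libraries. Without the labeled 60 min library of replicate 1, Srsf1 introns fell (-0.52, adjusted p = 0.043) and the median of the SR genes was 0.16. That median was 0.18 without the labeled 15 min library of replicate 1. It was -0.05 without all of replicate 1 and 0.77 without all of replicate 2. The calls of Srsf7, Srsf3 and Srsf9 introns were lost on leaving out any of 4, 9 and 10 single libraries, respectively, with adjusted p up to 0.074, 0.079 and 0.12.

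No effect of labeling time was found for the SR genes. The change in the labeled minus total difference between 15 and 60 min ran from -0.38 (Srsf7) to 0.39 (Srsf9) for exons, with SE from 0.23 to 0.47, and from -0.99 (Srsf9) to 0.06 (Srsf11) for introns, with SE from 0.50 to 0.96. Labeled RNA at 60 against 15 min ran from -0.33 (Srsf7) to 0.07 (Srsf1) for exons. For introns, a comparison added after the values had been seen, it lay below 0 in all 10 SR genes, from -0.86 (Srsf6) to -0.10 (Srsf11), with a median of -0.37 beside -0.03 over all genes, and Srsf2 at an unadjusted p of 0.037 (adjusted p = 1 by limma). This median was 0.26 without the labeled 60 min library of replicate 2 and -1.07 without that of replicate 1. It was -0.16 and -0.74 without the labeled 15 min library of replicate 1 and of replicate 2, respectively. By limma 0 of 10 passed in each of these comparisons, as did 0 of all genes (0% of 13977 and of 9117), with 162, 33, 178 and 11 genes at an unadjusted p under 0.05, respectively. Each group held 2 libraries, and differences of the size of these SE were not detectable.

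Other factors of the same pathway were described from lists chosen with earlier results of these data known. Of 25 tested SR-related proteins, kinases and carriers, 0 rose and 2 fell in exonic abundance, with a median of -0.07, beside 5.28% of all genes that rose, 11.6% that fell and a median of -0.05. These were Srrm1, a coactivator that binds exon junctions (-0.56, SE 0.13, adjusted p = 0.016), and Son, an SR-related protein of nuclear speckles (-0.34, SE 0.10, adjusted p = 0.038). Of 12 factors of nonsense-mediated decay 0 rose and 2 fell, Casc3 (-0.58, adjusted p = 0.0064) and Eif4a3 (-0.48, adjusted p = 0.023), both of the exon junction complex, with a median of -0.24. Of 13 hnRNP and PTB proteins, which often oppose SR proteins, 0 rose and 4 fell, with a median of -0.29: Ptbp1 (-0.61, adjusted p = 0.016), Hnrnpd (-0.55, adjusted p = 0.0035), Hnrnpk (-0.53, adjusted p = 0.0040) and Ptbp2 (-0.52, adjusted p = 0.021). For introns, 5 of 22, 2 of 9 and 2 of 12 members rose, and 1 of the 22 fell, in the order of the lists, beside 32.3% of all genes that rose. Their medians of 0.44, 0.38 and 0.24 lay below the 0.65 over all genes. None of the 3 lists had a member whose exonic abundance rose in this fit.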

How the data were processed

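Per the labels and the study's methods, the authors took out rRNA reads with STAR 2.5.0, mapped the remainder to the sequences of exons and introns with the same tool, and ran RSEM. The deposited values are a signal: length-normalized abundances of the exons and introns of each transcript, scaled together to nearly the same sum (at least 19988830) per library. Values of 1 or less are missing (the smallest is 1.01) and were taken as 0. The scaling and this minimum come from the values and are not stated in the sources used here. A test on counts could not be used. Counting error was not computed.

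Transcripts were matched to GENCODE M1 by identifier (83847 of 111672 Ensembl transcripts with exonic values). Those without a match were assigned to no gene, so gene sums, ratios and shares leave them out. Features with a mean of at least 20 were put on the log2(value + 1) scale, which understates changes of low values, and tested in limma 3.58.1 (R 4.3.3). The model held labeling time as a covariate, the variance was given a trend on the mean except for the ratio, and p-values were adjusted by Benjamini-Hochberg over all features. Shares were compared with exact permutation tests. On simulated data for the transcript comparison (45537 transcripts), 47 of 100 changed by a log2 value of 1 and 82 of 100 changed by 2 were recovered, with 8 false calls. For gene exons these were 73 and 89 of 100, with 7 false calls. For gene introns they were 21 and 83 of 100, with 5 false calls.

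Named were all members, in each the leading transcript of a class, and each transcript past the exonic test, and of the lists at most 6 genes past the exonic test. The members and lists were chosen with earlier results of these data known. Introns of single transcripts, introns clear of coding exons and the single libraries left out of the shares were added after the values had been seen. Copies were sought with minimap2 2.31. Permutation tests ran in numpy 2.4.6 and tables in pandas 2.3.3 under Python 3.11.15, and figures in matplotlib 3.10.9. Alternatives were another pseudocount of 20, no filter, rescaling by the median ratio, missing values as 1, a block of labeling time and replicate, and leaving out each replicate or library. Protein sequences were not used here.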

Additional observations from a re-analysis of the deposited data

Results flagged for a closer look

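Within a group of 6 libraries, a library was singled out where its gap to the nearest other exceeded Dixon's 95% critical value. Of 92 groups examined, 6 held such a library, and chance gives about 4.6. In 5 of them it is the labeled 60 min library of replicate 2: its noncoding share of Srsf1 was 76.6% (next 69.6%), its intronic sum was 3749 for Srsf2 (next 9895), 74.9 for Srsf6 (next 242) and 269.6 for Srsf7 (next 504), and its exonic abundance of Srsf1-006 was 244 (next 329). In the other it is the labeled 60 min library of replicate 1, whose noncoding share of Srsf4 was 36.0% (next 26.8%). The same library of replicate 2 also had the lowest intron share of all labeled libraries, and its part in these values was not tested.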

How the results depend on the processing

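The files hold no counts and the depth of each library is unknown, so no alternative on counts was run. Same-numbered libraries did not deviate together (correlations of deviations -0.09, 0.07 and -0.30 at 15, 30 and 60 min), so the replicate block joins labeled and total libraries by labeling time and number only. Under the block, calls over all features went from 7888 to 4470 for transcript exons, from 2353 to 1270 for gene exons and from 46 to 8 for the ratio, the 1 gene (Srsf1) with p under 0.05 for the noncoding share became 0, and Srsf10-003 and Srsf10-004 were lost. Rescaling each library by its median ratio left 4 of the 7 SR transcripts, losing Srsf9-002, Srsf10-002 and Srsf10-004. It turned gene exons of Srsf7 and Srsf4 to 0.042 and 0.0062, and gene introns of Srsf6, Srsf5, Srsf10, Srsf4 and Srsf11 to -0.0055, -0.53, -0.44, -0.23 and -0.33. Over all genes it gave 817 higher and 788 lower intron calls in place of 2946 and 30, and 1199 and 1863 exon calls in place of 738 and 1615. Introns clear of coding exons, chosen after the values were seen, gave 1 SR gene in place of 3, turned Srsf1 to 0.62 and gave 1932 calls over fewer genes tested. Without a filter, over more features tested, intron calls were 4659 for genes in place of 2976. For transcripts they were 15075 in place of 5061 (4969 higher and 92 lower). The ratio gave 103 calls with a pseudocount of 20, 2 with no filter, 27 with decay targets only, 100 higher and 1 lower with retained-intron transcripts only and 25 without these, where Srsf5 was -0.027. For exons by labeling time, calls went from 0 to 4 (pseudocount of 20) and 8 (no filter) for labeled minus total RNA and to 6 (no filter) for labeled RNA, with 0 SR genes. The cause was not tested.

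Leaving out a replicate or a library gave 0 to 9 SR transcripts by exons, 0 to 1 genes by exons, 0 to 4 genes and 0 to 18 transcripts by introns, and 0 for the ratio. For labeling time, leaving out a library leaves a single library in a group, and no counts are given. Leaving out single libraries gave 1 to 2 genes for the noncoding share, and without a whole replicate the smallest p possible there is 0.1. The 9, 4 and 18 come without the labeled 60 min library of replicate 2. Without either whole replicate, 0 SR transcripts and 0 genes passed by exons, as almost none of all transcripts did (0 and 5). Directions turned on leaving out libraries for gene exons of Srsf7 (-0.11 to 0.081), Srsf4 (-0.21 to 0.13), Srsf11 (-0.22 to 0.013) and Srsf3 (-0.17 to 0.029), for gene introns of Srsf5 (-0.045 to 0.32), Srsf10 (-0.080 to 0.53), Srsf4 (-0.094 to 0.96) and Srsf11 (-0.052 to 0.71), for the ratio of Srsf5 (-0.043 to 0.061), and for the noncoding share of Srsf5 (-0.74 to 1.06 points) and Srsf9 (-0.085 to 0.74 points). Time comparisons without a replicate have no residual degrees of freedom and give no test. Under alternatives that leave out no library, 285 values kept their direction and their side of the threshold (counts stayed within 1.5 times), 20 no longer passed, 2 came to pass, 18 moved and 9 turned.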

Other observations

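Over the 12 libraries, the genes whose log2 exonic sums followed the mean of the 10 SR genes most closely, among 13977 genes, were Smad2 (Pearson r = 0.950), Zc3h4 (0.941), 1700019D03Rik (0.939), Ntn1 (0.937) and Gm12725 (0.935). All points share the same 12 libraries and their scaling, so this is a description.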
